A study of Mus musculus with 12 samples.

Results

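The genes described here build ribosomes. A list of 40 ribosome biogenesis genes was looked up by symbol in the annotation of a mouse Affymetrix expression array, and 38 of them had a probe among 19505 named genes and 22206 probes. The rule took the probe with the highest mean where a gene had several, which was the case for 0 members. Nop56 and Gnl3 were not analysed here. The members were chosen by name and function, with earlier results of these data known, and not by a threshold on measured values.

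The study measured RNA from colonic tissue of male mice described as healthy and aged 12 to 16 weeks. Wild type, LAO1 knockout, IL4i1 knockout and double knockout (DKO, both genes lost) were each represented by 3 arrays. Il4i1 and Lao1 encode L-amino acid oxidases, secreted enzymes that break down amino acids, and the series' text places the comparison in the context of colonic inflammation in the double knockout. No treatment was given to any group, and the labels name neither the strain nor how the knockouts were made. Genotypes rest on the labels: the Lao1 probe lay between 2.64 and 3.56 on all 12 arrays, in the dim range of the table. The sources used here do not say whether that probe lies in the deleted stretch, so it checks nothing. No probe named Il4i1 was analysed here.

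Ribosome synthesis starts in the nucleolus, where RNA polymerase I copies the ribosomal DNA into a long precursor RNA. Small nucleolar RNA-protein complexes (snoRNPs) mark and modify that RNA, and a large set of assembly factors folds, cuts and packs it into the small and the large ribosomal subunit. In the gut the pathway is most active in the dividing cells at the base of the crypts, and MYC, a transcription factor that binds the E-box CACGTG, is known for driving many of its genes. ETS-family factors, which bind sites with the core CCGGAAG, are common at the start sites of housekeeping genes.

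Promoter sequence was available for 35 of the 40 listed genes from RefSeq (build GRCm38.p6), as windows of 250 bases before to 50 bases after each start site. The entries of Fbl, Npm1, Bop1, Rrs1 and Rrp12 were not in the table used here. The letters CACGTG, which read the same on both strands, were found in 7 of the 35 genes (20%), against 8.91% of 17491 protein-coding genes. Each match is shown in a stretch of 30 bases, because the E-box is the site known for MYC. Capitals mark the 6 letters and the sequences read 5′ to 3′ on the gene's strand.
Nop2 (chr6:125131811-125131840, + strand): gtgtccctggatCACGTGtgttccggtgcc
Pes1 (chr11:3963965-3963994, + strand): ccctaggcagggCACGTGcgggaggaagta
Wdr43 (chr17:71616220-71616249, + strand): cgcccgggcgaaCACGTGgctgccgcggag
Tsr1 (chr11:74898092-74898121, + strand): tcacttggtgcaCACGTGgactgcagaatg
Ltv1 (chr10:13193092-13193121, - strand): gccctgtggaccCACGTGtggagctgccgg
Utp20 (chr10:88826765-88826794, - strand): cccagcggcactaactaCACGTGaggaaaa
Mybbp1a (chr11:72441347-72441376, + strand): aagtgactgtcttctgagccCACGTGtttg

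In Nop2 the E-box began 60 bases before the start site. In the other 6 genes it began after the start, at base 3 in Pes1, 18 in Wdr43, 25 in Tsr1, 29 in Ltv1, 38 in Utp20 and 41 in Mybbp1a, inside the transcribed part. Of all 1855 matches in the table, 12.9% lay after the start. This feature was looked at once the matches had been seen.

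The ETS core CCGGAAG, searched on both strands, was found in 13 of the 35 genes (37.1%), against 12.9% of protein-coding genes. It is shown for 4 members, with the core in capitals.
Polr1c (chr17:46248070-46248099, - strand): cccacttgacgtCCGGAAGtgaaggacgtg
Nhp2 (chr11:51619738-51619767, + strand): ccacttgaaaacCCGGAAGtgatgtcggag
Heatr1 (chr13:12395347-12395376, + strand): cgtagtgagaagCCGGAAGttcctatgagg
Gar1 (chr3:129831422-129831451, - strand): cgcgccgccacaCTTCCGGaaacgtcgcgt

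Gar1 holds the core on the opposite strand.

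Nop2, Ltv1 and Tsr1 held both motifs, and 17 of the 35 genes held at least 1 of them, with 0 overlaps between the letters of different motifs. The 250 bases before the start of Nop2 (chr6:125131633-125131882, + strand) show the pair close together.
Nop2: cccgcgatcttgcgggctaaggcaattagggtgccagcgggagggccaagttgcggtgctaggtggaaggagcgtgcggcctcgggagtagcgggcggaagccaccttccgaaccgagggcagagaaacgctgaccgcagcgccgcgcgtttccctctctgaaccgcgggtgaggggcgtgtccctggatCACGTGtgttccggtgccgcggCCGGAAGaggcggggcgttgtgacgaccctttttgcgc

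The TATA letters TATAAA were present in 3 of the 35 genes (8.57%), against 14.8% of protein-coding genes. The palindrome of NRF1, another factor of housekeeping genes, was found in 0 of the 35, against 1.47%. Members with and without a motif are compared below, beside their values in the double knockout.

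The 12 arrays had medians between 5.42 and 5.49 on the deposited log2 scale, and any pair of them correlated at r = 0.964 to 0.990 over all probes. Colon epithelium markers (12 genes, among them Krt8 and Cdx2) had list means of 14.49 to 16.26, so epithelial transcripts were bright on every array. Both ends of that range were arrays of the IL4i1 knockout. Double knockout replicate 2 stood apart: 8 markers of pancreatic acinar cells averaged 16.14 on it and 3.86 to 4.67 on the other arrays. IL4i1 knockout replicate 2 and double knockout replicate 1 held the highest value of 12 arrays for 14.7% and 12.0% of all probes, against 5.43% to 8.52% for the others. In bulk tissue, fewer cells of a type and less RNA per cell cannot be told apart. Every mean below is given ± SD over 3 arrays, and every adjusted p is limma's, over all 22206 probes.

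Signals of the members were mostly above the middle of the table: 37 of 38 had a mean above the table median of 5.45, and Dkc1 lay at 5.27. The brightest probes were those of Npm1 (mean 14.23), Ncl (12.56) and Fbl (12.55), and the dimmest those of Dkc1, Bop1 (5.45) and Rrp12 (5.67). Such values depend on the probe and give no order of abundance between genes.

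The mean over the 38 members was 8.13, 8.04 and 7.98 on the wild type arrays. It was 8.29, 8.14 and 8.17 in the LAO1 knockout, and 8.55, 8.24 and 8.13 in the IL4i1 knockout. In the double knockout it was 8.81, 8.12 and 8.34. The group means were 8.05 ± 0.08, 8.20 ± 0.08, 8.31 ± 0.22 and 8.43 ± 0.35 in that order, and each neighbouring pair of knockouts overlapped. The 3 highest arrays were replicate 1 of the double knockout, replicate 3 of the double knockout and replicate 1 of the IL4i1 knockout. The lowest array of the double knockout lay within the wild type range.

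**Figure D1:**
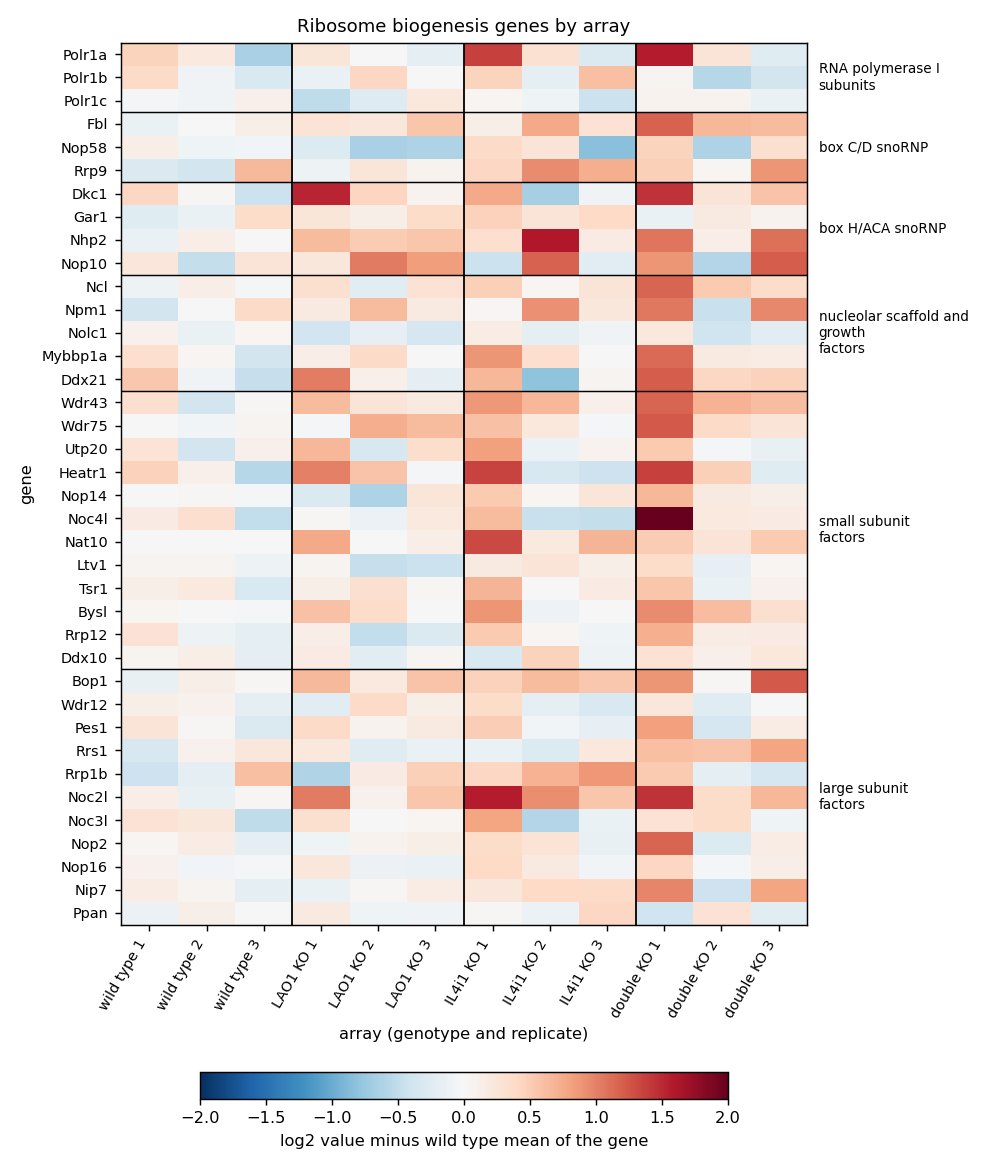
Heat map of the 38 members (rows, grouped by role) on the 12 arrays (columns), coloured by the deposited log2 value minus the gene's wild type mean. Double knockout replicate 1 lies above the wild type mean for 36 of 38 members, while double knockout replicate 2 does so for 24.

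The double knockout was compared with wild type to ask what loss of both oxidases does. Most ribosome biogenesis genes stood higher in the double knockout, but none of the 38 passed the test. The difference was positive for 33 members, against 50.2% of all probes, with a median of 0.44 on the log2 scale and a range of -0.29 to 0.83. The median over all probes was 0.00. Adjusted p-values of the members ran from 0.393 to 0.998, in a comparison where 5 probes (0.0225%) passed. At an unadjusted p under 0.05, 9 members were higher and 0 lower, against 3.63% and 3.81% of all probes. The 9 were Fbl, Wdr43, Rrs1, Ncl, Bop1, Noc2l, Bysl, Nhp2 and Wdr75.

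RNA polymerase I was the role with the smallest median, 0.01 over 3 subunits. Polr1a, the largest catalytic subunit, read 7.73, 7.48 and 6.64 in wild type and 8.86, 7.54 and 7.04 in the double knockout. Polr1b, the second largest subunit, read 7.68, 7.23 and 6.99 against 7.36, 6.73 and 6.94. Polr1c, a subunit shared with RNA polymerase III, had means of 7.71 and 7.72. The groups overlapped for all of them, and Polr1b had the most negative difference of the 38 members (-0.29, SE 0.27, adjusted p = 0.859).

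The box C/D snoRNP members guide methylation of ribosomal RNA, and Fbl is the enzyme that adds the methyl group. Fbl read 12.03, 12.17 and 12.28 in wild type and 13.34, 12.83 and 12.80 in the double knockout. All 3 double knockout arrays lay above every wild type array, and also above every LAO1 knockout array (12.39 to 12.71). The means were 12.16 ± 0.13 and 12.99 ± 0.30, a 1.78-fold difference (0.83 on the log2 scale, SE 0.22), with an unadjusted p of 0.00259 and an adjusted p of 0.393. Nop58, a core protein of the same particles, differed by 0.05 (adjusted p = 0.988). Rrp9, which binds the U3 snoRNA needed for the first cuts of the precursor, differed by 0.47 (adjusted p = 0.773).

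The box H/ACA snoRNP converts uridine to pseudouridine, with Dkc1 as the enzyme and Gar1, Nhp2 and Nop10 as its partners. The 4 had positive differences with a median of 0.63. Nhp2 read 7.68, 7.94 and 7.82 in wild type and 8.88, 7.94 and 8.92 in the double knockout (0.77, SE 0.35, adjusted p = 0.667). Replicates 1 and 3 of the double knockout were high and replicate 2 equalled the highest wild type array. Nop10 had the same order, with 11.60, 10.13 and 11.93 in the double knockout against 10.94, 10.24 and 10.97. Gar1 differed by only 0.04 (adjusted p = 0.985).

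Among the nucleolar scaffold and growth proteins, 4 of 5 measured members were higher, with a median of 0.53. Ncl (nucleolin, an abundant RNA-binding protein of the nucleolus) read 12.19, 12.43 and 12.25 in wild type and 13.46, 12.81 and 12.66 in the double knockout. The groups did not overlap, and the means of 12.29 ± 0.12 and 12.98 ± 0.43 differed 1.61-fold (0.69 on the log2 scale, SE 0.24, adjusted p = 0.575). Npm1 (nucleophosmin, a chaperone for late subunit assembly) read 14.98, 13.48 and 14.89 in the double knockout, so replicate 2 was below all 3 wild type arrays (13.55 to 14.30). Nolc1, a chaperone of snoRNPs, was the member on the lower side (-0.14, SE 0.20, adjusted p = 0.919).

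The small subunit factors, most of them parts of the processome that forms on the growing precursor, were higher in 12 of 12 cases with a median of 0.39. Wdr43, a processome component, read 9.61, 8.91 and 9.29 in wild type and 10.43, 9.97 and 9.89 in the double knockout. The groups did not overlap, and the difference was 0.83 (SE 0.26, 1.77-fold, adjusted p = 0.503). Wdr75, which acts in the same part of the processome, read 7.38, 7.34 and 7.45 against 8.62, 7.77 and 7.64, again without overlap (0.62, adjusted p = 0.669). Bysl, an adapter of small subunit maturation, had means of 6.89 ± 0.04 and 7.52 ± 0.31 (0.63, adjusted p = 0.645). Noc4l had a difference of 0.78 that came from replicate 1 at 8.56, since the other arrays of the double knockout read 6.75 and 6.72 against 6.07 to 6.89 in wild type.

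The large subunit factors were higher in 8 of 11 cases with a median of 0.21. Rrs1, which helps load the small ribosomal RNA of the large subunit, read 6.43, 6.85 and 6.99 in wild type and 7.36, 7.33 and 7.54 in the double knockout. All 3 double knockout arrays lay above the other 9 arrays of the study, whose highest Rrs1 value was 6.99. The difference from wild type was 0.65 (SE 0.22, 1.57-fold, unadjusted p = 0.00962, adjusted p = 0.532). Bop1, Pes1 and Wdr12 form the PeBoW complex, which processes the large subunit RNA, and they did not share a size: 0.71 (adjusted p = 0.583), 0.21 and -0.00. Noc2l, a nucleolar factor that also binds histones, read 8.07, 7.79 and 7.96 against 9.38, 8.30 and 8.60 without overlap (0.82, SE 0.33, adjusted p = 0.615). Ppan (-0.11) and Rrp1b (-0.00) were the other members below 0, with adjusted p-values of 0.948 and 0.998.

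**Figure D2:**
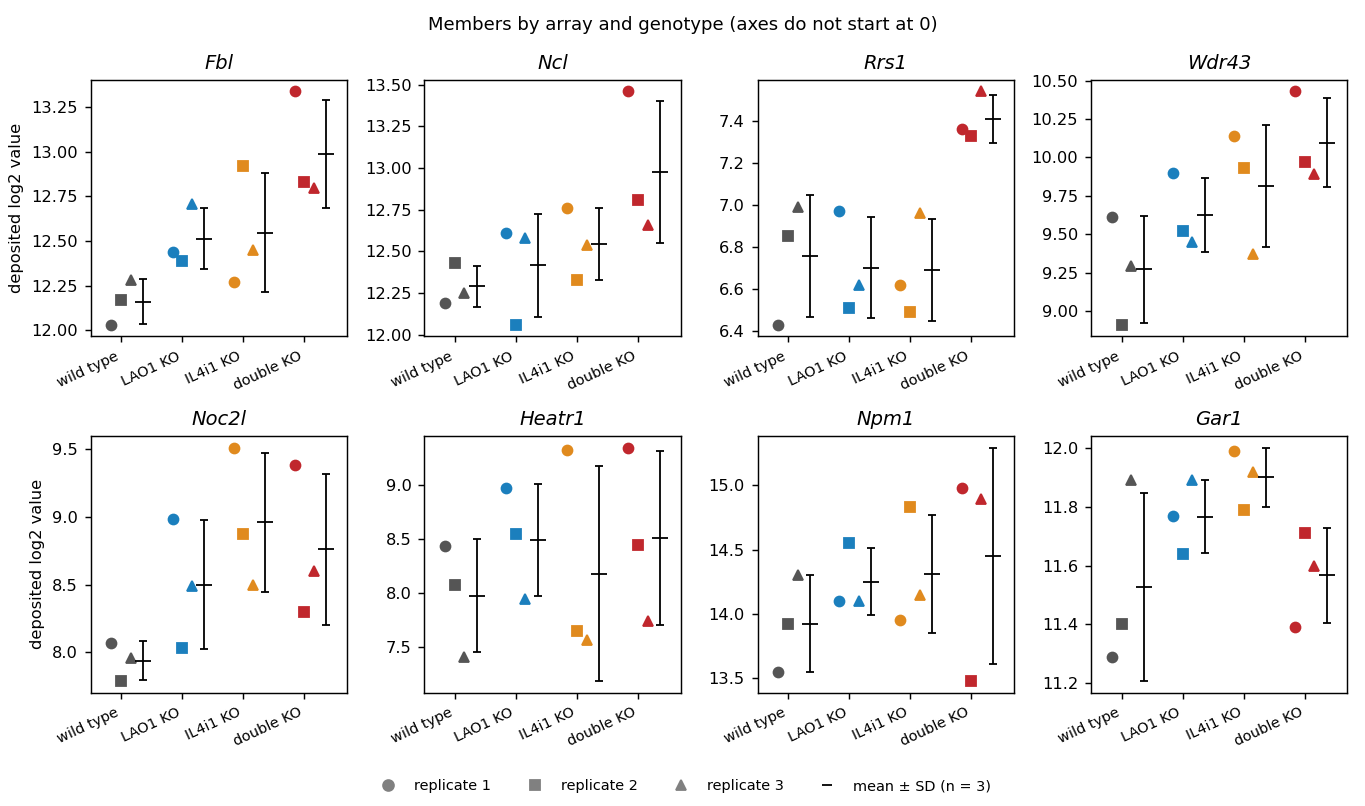
Deposited log2 values of 8 members (panels) on each array, by genotype; symbols mark the replicate number and black bars the mean ± SD of 3 arrays. Rrs1 in the double knockout (7.33 to 7.54) lies above all other arrays, whereas Npm1 spans 13.48 to 14.98 within the double knockout, which is also its range over all 12 arrays.

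The double knockout arrays lay entirely above wild type for 9 members: Fbl, Ncl, Wdr43, Wdr75, Nop14, Nat10, Bysl, Rrs1 and Noc2l. The same held for 5.68% of all probes. For 0 members did they lie entirely below, against 5.95% of all probes. Nat10, which acetylates ribosomal RNA, was flat in wild type (6.07, 6.09 and 6.09) and read 6.59, 6.34 and 6.60 in the double knockout.

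Much of the difference came from double knockout replicate 1. It was the highest of all 12 arrays for 20 of 38 members, against 12% of all probes. The median member stood 0.77 above its wild type mean on that array, 0.14 on replicate 2 and 0.16 on replicate 3. Without replicate 1, the median difference from wild type was 0.16, with 27 of 38 members higher. Then 3 members, Fbl (0.66), Wdr43 (0.66) and Rrs1 (0.68), were at an unadjusted p under 0.05, against 2.81% of all probes, with adjusted p-values of 0.852, 0.902 and 0.855. Ncl then differed by 0.45 and Bop1 by 0.62. The medians by role were then 0.46 for box C/D, 0.36 for box H/ACA, 0.26 for the scaffold proteins, 0.16 for small and 0.06 for large subunit factors, and -0.03 for RNA polymerase I.

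Without double knockout replicate 2, the array with acinar markers, the median was 0.60 with 33 members higher. Then 14 members, against 5.11% of all probes, were at an unadjusted p under 0.05, and the smallest adjusted p of a member was 0.107 (Bop1). Bop1, a dim member, read 4.88, 5.14 and 5.05 in wild type and 5.90, 5.04 and 6.25 in the double knockout. The array left out was the only double knockout array within its wild type range. Leaving out wild type replicate 1 or 2 gave 5 members at an unadjusted p under 0.05, against 2.99% and 2.4% of all probes. None passed the adjusted test in any of these fits.

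**Figure D3:**
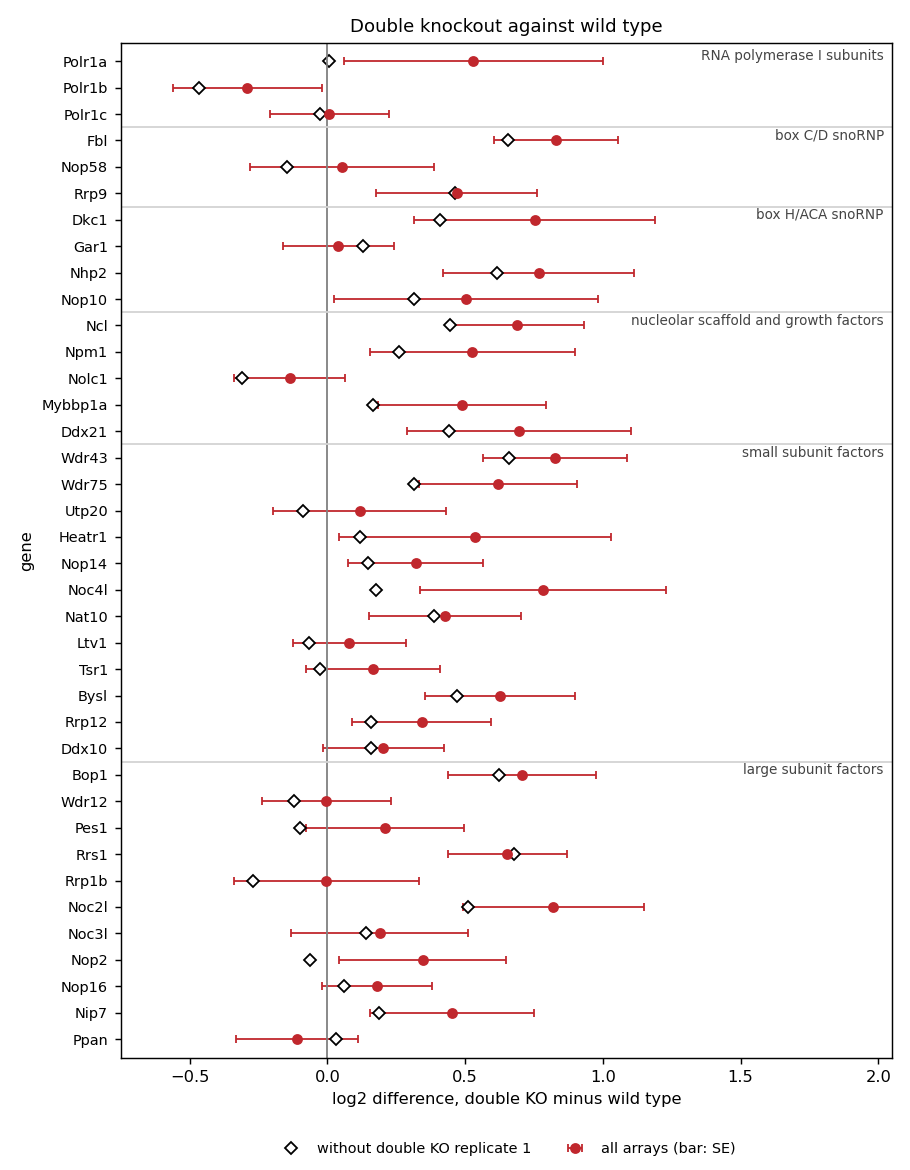
Log2 difference of each member between double knockout and wild type (red points, bars show the SE; right of 0 means higher in the double knockout), with the value without double knockout replicate 1 as open diamonds. Without that array Fbl moves from 0.83 to 0.66, Wdr43 from 0.83 to 0.66 and Rrs1 from 0.65 to 0.68, whereas Noc4l moves from 0.78 to 0.18 and Nop2 from 0.35 to -0.06.

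Replicate 1 was high in the other genotypes too. It was the highest array of its genotype for 18 members in wild type, 21 in the LAO1 knockout, 25 in the IL4i1 knockout and 28 in the double knockout, against 33.0%, 33.8%, 34.1% and 32.8% of all probes. For 12 members it was the highest in all 4 genotypes, against 2.89% of all probes: Polr1a, Nop58, Dkc1, Ddx21, Wdr43, Utp20, Heatr1, Bysl, Rrp12, Pes1, Noc2l and Nop16. Heatr1, a processome protein that also supports RNA polymerase I, read 8.44, 8.98, 9.33 and 9.35 on the replicate 1 arrays and 7.41 to 8.55 on the other 8. Rrp9 and Nop10 showed this order in 0 genotypes. The labels do not say what the replicate numbers stand for. The mean of 8 smooth muscle markers ran the other way: replicate 1 was the lowest array of each genotype (14.56, 13.99, 14.54 and 13.97), and 5 of the 8 markers were lowest there in all 4 genotypes, against 1.97% of all probes. The part of tissue makeup in the members' values was not tested.

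The LAO1 knockout was compared with wild type to ask what loss of LAO1 alone does. Differences of the members were small: 30 of 38 were higher, against 51.2% of all probes, with a median of 0.12. All adjusted p-values of members were 1, in a comparison where 1 probe (0.0045%) passed. At an unadjusted p under 0.05, 0 members were higher and 0 lower, against 1.45% of all probes higher and 1.57% lower. With a replicate block 2 members were higher at that level, and with only the compared arrays 3 were higher and 1 lower. Of all probes 1.66% and 2.04% were then higher. Leaving out LAO1 knockout replicate 1 or 2, IL4i1 knockout replicate 2 or double knockout replicate 2 gave 1 higher. The share of all probes was 1.43% to 1.72% in those fits. Without wild type replicate 3 the median was 0.06.

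The box H/ACA members stood out among the roles by size, with 4 of 4 higher and a median of 0.62. Nhp2 read 8.44, 8.32 and 8.37 in the LAO1 knockout against 7.68 to 7.94 in wild type (0.56, SE 0.35). Nop10 read 10.95, 11.75 and 11.56 against 10.24 to 10.97, with overlap. The arrays of the LAO1 knockout lay entirely above wild type for Fbl, Nhp2 and Bop1 (4.67% of all probes did) and entirely below for Nop58 and Nolc1 (3.86%).

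The other members with the smallest p on the higher side were Bop1 (0.47, SE 0.27), Noc2l (0.56, SE 0.33), Fbl (0.35, SE 0.22) and Wdr75 (0.44). On the lower side Nop58 read 8.75, 8.38 and 8.42 against 8.94 to 9.17 in wild type (-0.51, SE 0.33). Nolc1 read 7.20, 7.42 and 7.25 against 7.45 to 7.67 (-0.29, SE 0.20). Ltv1 (-0.28), an export factor of the small subunit, Nop14 (-0.22) and Polr1c (-0.18) followed.

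The IL4i1 knockout was compared with wild type to ask what loss of IL4i1 alone does. Of the 38 members 31 were higher, against 53.2% of all probes, with a median of 0.25 and no adjusted p below 0.533. In this comparison 3 probes (0.0135%) passed. At an unadjusted p under 0.05, 3 members were higher, Noc2l, Nat10 and Rrp9, and 0 lower, against 3.25% and 4.34% of all probes. After quantile normalization the count of higher members was 6, and without double knockout replicate 2 it was 5. Of all probes 3.37% and 3.39% were then higher at that level.

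Noc2l had the largest difference of any member in this comparison. It read 9.51, 8.87 and 8.50 in the IL4i1 knockout against 7.79 to 8.07 in wild type, without overlap (1.02, SE 0.33, unadjusted p = 0.00812, adjusted p = 0.533). Nat10 read 7.41, 6.28 and 6.77 against 6.07 to 6.09 (0.74, SE 0.28, adjusted p = 0.587). Rrp9 read 9.31, 9.84 and 9.62 against 8.53 to 9.55, with overlap (0.69, SE 0.29, adjusted p = 0.625). Wdr43 (0.54) and Bop1 (0.55) had adjusted p-values of 0.657 and 0.660.

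The arrays lay entirely above wild type for 7 members, Nhp2, Nop14, Nat10, Ltv1, Bop1, Noc2l and Nip7, and entirely below for 0. The same held for 5.97% and 5.16% of all probes. The members below 0 with the smallest p were Polr1c (-0.16), Rrs1 (-0.07), Noc4l (-0.09), Wdr12 (-0.05) and Nop58 (-0.06). Here too replicate 1 weighed most: the median member stood 0.47 above its wild type mean on it, and without it the median difference was 0.11 with 24 members higher. Without wild type replicate 3 the median was 0.15, with 5 members higher at an unadjusted p under 0.05, against 5.02% of all probes.

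The double knockout was compared with each single knockout to ask what the second loss adds. These comparisons and those above share arrays, so their values are set side by side and not counted as separate support. Against the LAO1 knockout 30 members were higher, against 48.7% of all probes, with a median of 0.20. None passed, in a comparison where 31 probes (0.14%) did. At an unadjusted p under 0.05, 4 members were higher, Rrs1, Ncl, Nop14 and Rrp12, and 0 lower, against 3.51% and 3.64% of all probes. Without double knockout replicate 1 the median was 0.04 with 1 such member, and without replicate 2 it was 0.41 with 9. Of all probes 2.71% and 4.47% were then higher at that level. Without LAO1 knockout replicate 1 the median was 0.30, and without LAO1 knockout replicate 2 or wild type replicate 2 there were 1 and 2 such members. The shares of all probes were 2.69% and 3.19% in those last fits. Centring, leaving out dim probes and eBayes with trend and robust options each gave 2, and the compared arrays alone gave 1. Under these settings 3.05% to 3.8% of all probes were higher at that level.

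Rrs1 read 6.97, 6.51 and 6.62 in the LAO1 knockout, below every double knockout array (0.71, SE 0.22, unadjusted p = 0.00578, adjusted p = 0.481). Ncl, at 12.61, 12.06 and 12.58, also lay below all 3 (0.56, SE 0.24, adjusted p = 0.669). Rrp12, a late factor of subunit export, read 5.73, 5.10 and 5.31 against 6.31, 5.74 and 5.76 (0.56, adjusted p = 0.691). With Fbl (0.48, adjusted p = 0.703) these were the 4 members whose groups did not overlap, against 6.25% of all probes above, and 0 lay entirely below, against 6.46%. Nop14, a processome factor, overlapped (0.54, adjusted p = 0.691). On the lower side Polr1b (-0.39, adjusted p = 0.842), Gar1 (-0.20), Ppan (-0.12), Nop10 (-0.20) and Wdr12 (-0.10) had the smallest p.

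Against the IL4i1 knockout 27 members were higher and 11 lower, with 47% of all probes higher, and the median was 0.12. None passed, in a comparison where 106 probes (0.477%) did. At an unadjusted p under 0.05, 1 member was higher, Rrs1, and 0 lower, against 5.17% and 4.66% of all probes. Without double knockout replicate 1 the median was -0.09 with 14 members higher, and without replicate 2 it was 0.26. Without IL4i1 knockout replicate 1 or replicate 3 the median was 0.21 or 0.03. The count of members higher at an unadjusted p under 0.05 was 5 without IL4i1 knockout replicate 1, 2 without its replicate 2, and 4 and 3 without double knockout replicates 2 and 3. With a replicate block it was 4. The shares of all probes in these fits were, in the same order, 6.33%, 4.73%, 5.7%, 5.59% and 5.8%. After quantile normalization the median was 0.07.

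Rrs1 read 6.62, 6.49 and 6.96 in the IL4i1 knockout (0.72, SE 0.22, unadjusted p = 0.00529, adjusted p = 0.237). It was the 1 member entirely above, against 6.05% of all probes. Gar1 was the 1 member entirely below, against 6.62%: it read 11.39, 11.71 and 11.60 in the double knockout and 11.99, 11.79 and 11.92 in the IL4i1 knockout (-0.33, SE 0.20, adjusted p = 0.634). Fbl (0.44, adjusted p = 0.548), Noc4l (0.88, SE 0.45, adjusted p = 0.553), Ncl (0.43) and Ddx21 (0.72), an RNA helicase of the nucleolus, had the next smallest p on the higher side. Polr1b (-0.57, SE 0.27, adjusted p = 0.516), Rrp1b (-0.66, SE 0.33, adjusted p = 0.549), Nat10 (-0.31) and Ppan (-0.22) had those on the lower side.

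The interaction subtracts both single knockouts from the sum of double knockout and wild type, and it asks whether the losses add up on the log2 scale. The members were split evenly, 19 above and 19 below 0, with a median of -0.02, and 46.3% of all probes were above 0. None passed, against 51 probes (0.23%). Rrs1 was the 1 member at an unadjusted p under 0.05 (0.78, SE 0.31, unadjusted p = 0.0243, adjusted p = 0.609), with 0 on the lower side, against 3.87% and 3.26% of all probes. The lower side was led by Gar1 (-0.57, SE 0.29, adjusted p = 0.727), Polr1b (-0.67), Noc2l (-0.76, SE 0.46, adjusted p = 0.810), Nat10 (-0.60) and Rrp1b (-0.67). The median was -0.25 without double knockout replicate 1 and 0.14 without replicate 2, and its sign also changed without several single arrays of the other genotypes.

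Members with a motif were set beside those without, for the difference between double knockout and wild type. The 7 members with an E-box had a median of 0.21 and the 26 measured members without it 0.44. The 13 with the ETS core had a median of 0.19 and the 20 without it 0.48.

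Other genes of the pathway were taken from lists that share no gene with the members. Double knockout against wild type gave a median of 0.23 over 41 other small subunit factors (32 higher) and 0.26 over 44 other large subunit factors (35 higher). It was 0.31 over 11 nuclear exosome genes (11 higher), 0.39 over 8 snoRNP assembly genes (5 higher) and 0.05 over 12 other RNA polymerase I genes (7 higher). Without double knockout replicate 1 these medians were 0.11 (25 higher), 0.04 (25 higher), 0.14, 0.05 and 0.01, and without replicate 2 they were 0.35, 0.32, 0.38, 0.72 and 0.10. The exosome trims the precursor RNA, and Exosc5, a core subunit, differed by 0.61 (SE 0.21, adjusted p = 0.557). Ddx27, a large subunit helicase, differed by 0.73 (SE 0.21, adjusted p = 0.435), and Pa2g4, a growth-linked nucleolar protein, by 0.95 (SE 0.32, adjusted p = 0.538). None of these list genes passed in this comparison.

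Utp11, a processome factor outside the members, went the opposite way. The wild type arrays read 8.69, 8.47 and 7.79, those of the LAO1 knockout 7.93, 7.99 and 7.85, those of the IL4i1 knockout 8.42, 8.24 and 8.79 and those of the double knockout 7.23, 7.18 and 7.26. All 3 double knockout arrays were below the other 9. It fell against the IL4i1 knockout (-1.26, SE 0.24, adjusted p = 0.0357), while its difference from wild type did not pass (-1.09, SE 0.24, adjusted p = 0.259).

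Ribosomal protein genes had a median of 0.25 over 33 of the large subunit (29 higher) and 0.33 over 23 of the small subunit (19 higher). Without double knockout replicate 1 the medians were 0.14 (24 higher) and 0.09 (15 higher), and without replicate 2 they were 0.47 and 0.51. Rpl9 (0.67, SE 0.31, adjusted p = 0.671) and Rps10 (0.47, SE 0.21, adjusted p = 0.659) were those with the smallest p. Their order over the arrays was not that of the members. The large subunit list averaged 14.23 and 14.16 on double knockout replicates 1 and 3 but 13.57 on replicate 2, next to the lowest array of the study (13.55, IL4i1 knockout replicate 1). Of the 56 ribosomal protein genes, 0 were highest on replicate 1 in all 4 genotypes.

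The 18 RNA polymerase III genes, which serve the small ribosomal RNA and transfer RNAs, had a median of -0.11 with 7 higher, and of -0.05 without double knockout replicate 2. Genes of the MYC network also had a median of -0.11 (3 of 11 higher), which was -0.09 without double knockout replicate 1 and -0.08 without replicate 2. Myc itself read 10.66, 12.10 and 10.58 in wild type and 11.77, 10.77 and 10.94 in the double knockout, with overlap (0.05, SE 0.42, adjusted p = 0.990). Mga (-0.80, SE 0.27, adjusted p = 0.559) and Mxd4 (-0.67, SE 0.28, adjusted p = 0.632), both repressive partners in that network, had the smallest p. The p53 list, whose protein is stabilised when ribosome assembly is disturbed, had a median of -0.12 with 2 of 10 higher, which was 0.00 without double knockout replicate 1 and -0.22 without replicate 2.

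Genes of DNA replication and mitosis had a larger difference than the ribosome biogenesis genes, with a median of 1.05, 14 of 15 higher and 10 at an unadjusted p under 0.05. Without double knockout replicate 1 the median was 0.61. Fen1, a flap nuclease, read 5.16, 4.66 and 4.37 in wild type and 6.74, 6.11 and 6.67 in the double knockout (1.78, SE 0.28, adjusted p = 0.0692). It rose against the IL4i1 knockout (1.42, adjusted p = 0.0439). Pcna, the sliding clamp of DNA polymerase, read 12.78, 11.74 and 12.56 against 11.03 to 11.55 (1.05, SE 0.26, adjusted p = 0.368). Mki67, a marker of cycling cells, did not share this: it differed by -0.02 (adjusted p = 0.996). Nucleotide synthesis genes had a median of 0.43 with 9 of 13 higher, among them Ctps (0.78, SE 0.26, adjusted p = 0.541). Without double knockout replicate 1 that median was 0.19.

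**Figure D4:**
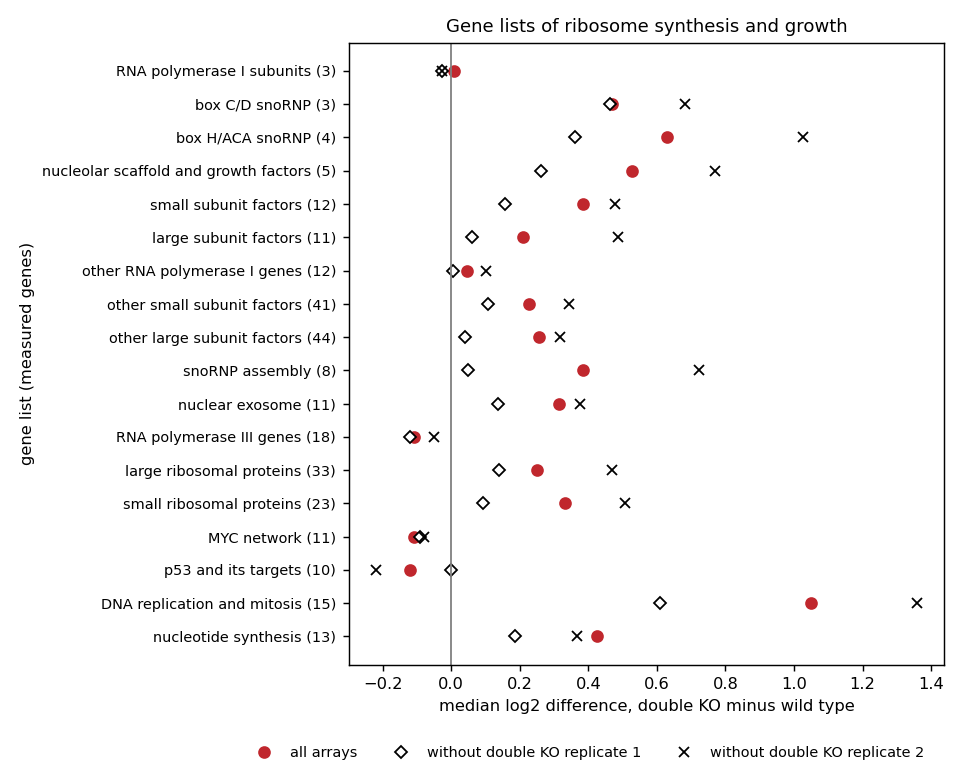
Median log2 difference between double knockout and wild type for the members' roles and related gene lists (measured genes in brackets), over all arrays (red points), without double knockout replicate 1 (diamonds) and without replicate 2 (crosses). Replication and mitosis genes lie highest at 1.05, 0.61 and 1.36. RNA polymerase III genes (-0.11, -0.12 and -0.05) and MYC network genes (-0.11, -0.09 and -0.08) lie below 0 in all 3 cases.

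Other cell and response markers were examined over the same arrays. The mean of 11 interferon response genes was 6.36 to 8.25 in wild type and 5.82 to 6.76 in the single knockouts. It was 11.31, 8.74 and 10.19 in the double knockout. All 11 exceeded wild type, with a median difference of 2.34 and 11 at an unadjusted p under 0.05 but 0 past the adjusted threshold, and 6 of them rose against the LAO1 knockout. Against wild type, 0 of the 11 were higher in the LAO1 or the IL4i1 knockout, with median differences of -1.21 and -1.49. Within the double knockout this list, like the members, was highest on replicate 1 and lowest on replicate 2. That order held for 16 of the 26 lists examined, among them both ribosomal protein lists, colon epithelium and leukocytes. The 26 include the members' own roles, of which small subunit factors and RNA polymerase I subunits did not show it. Smooth muscle markers averaged 14.96 ± 0.35 in wild type and 14.28 ± 0.41 in the double knockout, with 0 of 8 higher and a median of -0.63. Fibroblast markers had a median of -0.52 with 0 of 5 higher, which was -1.08 without double knockout replicate 2. In the single knockouts the median of smooth muscle markers had opposite signs, -0.46 (1 of 8 higher) in the LAO1 and 0.34 (8 of 8 higher) in the IL4i1 knockout, while that of fibroblast markers was -0.37 and -0.64. Epithelial markers had a median of 0.10 (7 of 12 higher), which was -0.05 without double knockout replicate 1, and 8 leukocyte markers one of 0.45. Crypt stem cell markers had a median of 0.00 with 3 of 6 higher. It was -0.17 without double knockout replicate 1 and 0.045 without replicate 2. The part of these cell types and responses in the members' values was not tested.

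**Figure D5:**
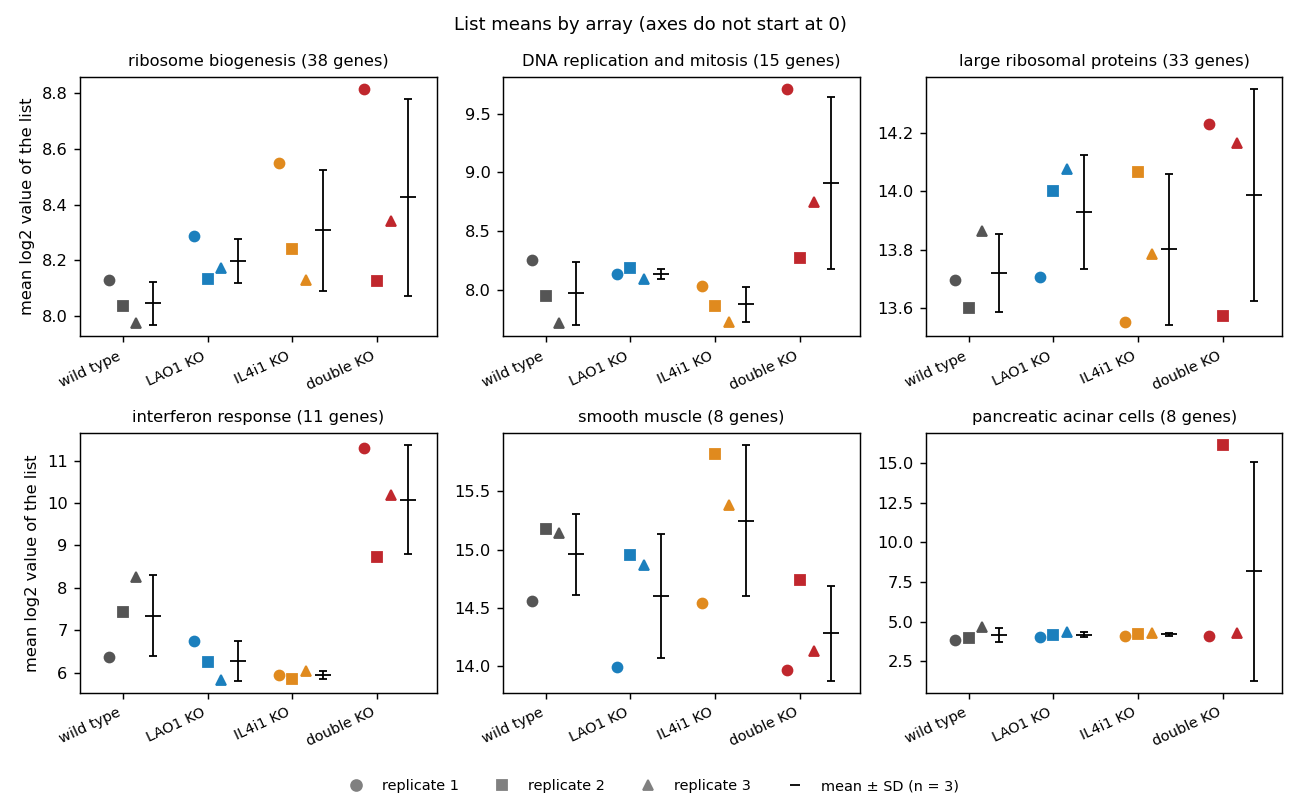
Mean deposited log2 value of 6 gene lists (panels) on each array, by genotype; symbols mark the replicate number and black bars the mean ± SD of 3 arrays. Ribosome biogenesis, replication, ribosomal protein and interferon genes are highest on replicate 1 and lowest on replicate 2 of the double knockout, smooth muscle markers are lowest on replicate 1 of each genotype, and acinar markers reach 16.14 on 1 array.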

How the data were processed

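Total RNA from colon was turned into biotin-labelled cRNA from 6 µg of RNA and hybridised to 12 Affymetrix arrays, per the labels' protocols. The authors deposited log2 expression values, given to 2 decimals, for 22206 probes. Transcriptome Analysis Console is the software named in the submitters' processing notes. How the values were summarised and normalized, and on which genome build, the sources used here do not state, and those steps can compress differences of dim or bright probes. Values were used as deposited, without a filter.

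Probes were named through the platform annotation, which can be old (19572 probes with 1 symbol, 0 with several, 2634 with none). Samples were grouped by their titles. The labels' protocols speak of 4 mice per genotype, and 3 arrays per genotype were analysed. Nothing says that an array held RNA of 1 mouse, and p-values therefore measure only the spread between the samples, which may be technical. With arrays, precision is limited by their number.

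A single limma model (version 3.58.1, lmFit with eBayes, under R 4.3.3) covered all 12 arrays and left 8 residual degrees of freedom. P-values are two-sided and adjusted by Benjamini-Hochberg over all 22206 probes, with a threshold of 0.05. The fit was tested on simulated data in which 200 probes were changed: 89% of changes of 2 on the log2 scale and 96% of changes of 3 were recovered, 16 of 201 calls were false, and smaller changes were not simulated. Lists are described by counts and medians, without a list test. Motifs were searched on both strands of RefSeq promoter windows. Plots used Python 3.11.15 and matplotlib 3.10.9.

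The members and lists were chosen with earlier results of these data known. In each comparison the members named were those past the threshold or, where fewer than 5 passed in a direction, the 5 with the smallest p. Also named were the 3 brightest, 3 dimmest, 3 most and 3 least variable members, up to 2 genes of each other list, and Myc, Mki67 and Pcna. Further members given by role were chosen after their values were seen. The alternatives were quantile normalization, centring on 1 median, leaving out dim probes, eBayes with trend and robust options, a replicate block, fits of only the compared arrays, and leaving out each array in turn.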

Additional observations from a re-analysis of the deposited data

Results flagged for a closer look

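Gar1, a partner of the pseudouridine synthase in the box H/ACA snoRNP, was singled out because its arrays differed in opposite directions in the presence and absence of the other gene. Loss of IL4i1 went with a higher Gar1 value on the wild type background (0.37 on the log2 scale, IL4i1 knockout minus wild type) and a lower one on the LAO1 knockout background (-0.20, double knockout minus LAO1 knockout). Loss of LAO1 went with 0.24 on the wild type background (LAO1 knockout minus wild type) and -0.33 on the IL4i1 knockout background (double knockout minus IL4i1 knockout). The difference between the paired effects is the interaction, -0.57 (SE 0.29), and limma gave it an adjusted p of 0.727, which did not pass. The groups overlapped in 3 of these 4 comparisons, the exception being double against IL4i1 knockout. Polr1b had differences of the same signs (0.28 and -0.39 for loss of IL4i1, 0.10 and -0.57 for loss of LAO1, interaction -0.67). They were larger than those of Gar1 on the knockout backgrounds and in the interaction, and smaller on the wild type background. For Polr1b not every array of a group lay on the same side. Rrp1b, Utp20 and Ppan also had differences of these signs, with interactions of -0.67, -0.37 and -0.23. For them, too, not every array of a group lay on the same side. Groups of 3 arrays were too small to test single arrays as outliers.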

How the results depend on the processing

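The count of members past the threshold was 0 under all 107 alternatives, which also covers every array left out. Scaling choices moved the median over all probes by at most 0.03. For double knockout against wild type, 33 members were higher with a median of 0.45 after quantile normalization and 32 with 0.43 after centring. Leaving out dim probes removed none of the 38 members, so it could not change their differences. The median of the members ran from 0.16 to 0.60 as single arrays were left out, and that of the interaction from -0.25 to 0.14.

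Counts of probes past the threshold were less stable. With trend and robust options they were 11 (double knockout against wild type) and 8 (IL4i1 knockout against wild type), against 5 and 3. With only the compared arrays they were 2 (double knockout against wild type) and 33 (against the IL4i1 knockout), against 5 and 106. Leaving out single arrays gave 1 to 38, 1 to 4 and 2 to 6 probes for the double, LAO1 and IL4i1 knockouts against wild type. It gave 11 to 68 and 46 to 174 for the double knockout against the LAO1 and IL4i1 knockouts and 37 to 74 for the interaction.

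The replicate numbers were not used as pairs in the main fit. Over all probes, deviations of same-numbered arrays correlated at -0.14 to 0.22 over 18 pairs, 7 of them above 0.1. Of 12 arrays, 5 correlated best with their own number. Over the 38 members alone the correlations were 0.05 to 0.68 for replicate 1, -0.50 to 0.29 for replicate 2 and 0.16 to 0.54 for replicate 3. They were thus all positive on replicates 1 and 3 and of mixed sign on replicate 2. Deviations were taken from the mean of each genotype, so the replicate numbers are not separate readings. With a replicate block 166 probes passed for double against IL4i1 knockout. The replicate numbers were balanced over the genotypes, so the block could not change the members' median of 0.44 for double knockout against wild type.

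Of 1070 alternatives for single members 1047 kept direction and side of the threshold, and 23 changed sign, none of them past the threshold. In many of the 1070 the direction could not change, because the setting leaves a member's difference as it is. These settings were leaving out dim probes, trend and robust options, the replicate block and the compared arrays alone. Leaving out an array of a genotype outside the comparison is another. After quantile normalization Wdr12 (double knockout against wild type) read 0.016 and Nop58 (IL4i1 knockout against wild type) 0.038. The other changes came with single arrays left out. For double knockout against wild type the range was then -0.31 to 0.032 for Ppan, -0.12 to 0.12 for Wdr12 and -0.27 to 0.30 for Rrp1b. For IL4i1 knockout against wild type it was -0.23 to 0.05 for Rrs1, -0.46 to 0.095 for Noc4l, -0.25 to 0.085 for Wdr12 and -0.29 to 0.33 for Nop58. For double against LAO1 knockout it was -0.32 to 0.025 for Ppan, -0.56 to 0.35 for Nop10 and -0.25 to 0.047 for Wdr12. The cause was not tested. Using the lowest-mean probe gave no value, since no member had several probes.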

Other observations

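The members differed in how much they varied within a genotype. The residual SD was smallest for Nop16 (0.19), Nolc1 (0.20) and Gar1 (0.20) and largest for Heatr1 (0.74), Nop10 (0.71) and Polr1a (0.70). Nop16, a large subunit factor, read 8.23 to 8.79 over all 12 arrays. Nop10 and Polr1a varied in different ways: Nop10 was lowest on double knockout replicate 2 (10.13) and highest on replicate 3 (11.93), while Polr1a was highest on replicate 1 of the double knockout (8.86) and of the IL4i1 knockout (8.65).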
